A study of Homo sapiens with 6 samples.

Results

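A group of 10 transcription factor genes of the proneural and neuroendocrine programme was followed in the neuroblastoma line SK-N-BE(2), of human origin: INSM1, INSM2, NEUROD1, NEUROG2, NHLH1, NHLH2, SCRT1, SCRT2, EBF1 and DACH1. They were chosen by symbol, each symbol matched 1 Ensembl ID of the deposited table through GENCODE 29, and together they are 10 of the 32434 gene IDs in it. The cells carried a lentiviral short hairpin RNA against MYT1 (shMYT1, 3 libraries) or a control hairpin (shNC, 3 libraries), and both groups were infected for 24 h and then selected with puromycin for 48 h. The labels' treatment text describes a knockdown, while their genotype and design fields say knockout. No label names the hairpin's target sequence or the number of hairpins used, and none describes the replicates as independent cultures. The p-values therefore cover only the variation among these libraries, which may be technical. The comparison asks which of these genes differ when MYT1, which encodes a zinc-finger factor active in developing neurons, is lowered.

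NEUROD1, NEUROG2, NHLH1 and NHLH2 encode basic helix-loop-helix (bHLH) proteins. Such proteins pair with E proteins and bind the E-box, a short DNA element, while ID proteins bind E proteins and keep them from DNA. INSM1, INSM2, SCRT1 and SCRT2 encode zinc-finger proteins that begin with a SNAG repressor domain, through which INSM1 and SNAI family proteins are known to recruit the histone demethylase LSD1 and the CoREST corepressors. EBF1 belongs to the COE family of helix-loop-helix factors of neurons and B cells, and DACH1, related to the SKI corepressors, works with EYA proteins and sine oculis homeobox proteins. In the sympathoadrenal lineage, from which neuroblastoma arises, INSM1 is known for its role in chromaffin and sympathetic cell differentiation.

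Values are FPKM, that is fragments per kilobase of exon and per M fragments (M, mega), so levels of different genes are given per length. Libraries held 18.2 to 20.3 M fragments in shMYT1 and 21.1 to 21.7 M in shNC, as recovered from the deposited values. MYT1 itself was at 4.20, 4.13 and 4.36 FPKM in the 3 shMYT1 libraries, against 5.73, 5.12 and 5.18 FPKM in the 3 shNC libraries. Its log2 fold change was -0.28 (SE 0.05, limma adjusted p = 0.0102), so the targeted transcript was lowered but still present. The noradrenergic neuroblastoma markers were all detected, with a summed level of 2575 to 2676 FPKM for 9 genes in shMYT1 and 2967 to 3127 FPKM in shNC. Of the 9, 3 rose and 3 fell, the falls including HAND2, which the list of other neural bHLH genes also holds. Markers of other states moved with the groups. The sum of 9 mesenchymal-state markers was 220.0 to 227 FPKM in shMYT1 and 174 to 180.0 FPKM in shNC, with 6 of 8 tested genes up and 0 down. The highest of them were VIM, at a mean of 153 FPKM in shMYT1 and 129 FPKM in shNC, and FN1, at 31.6 and 18.1 FPKM. Beside each of these marker counts stand the shares over all tested genes, 11.9% higher and 12.3% lower in shMYT1 (limma adjusted p under 0.05). The sum of 7 fibroblast markers was 109.7 to 112.9 FPKM in shMYT1 and 159.0 to 163 FPKM in shNC, with LUM the highest of them at a mean of 54.6 FPKM in shMYT1 and 97.7 FPKM in shNC. Of 5 tested fibroblast markers, 1 rose and 3 fell; the one that rose was COL3A1, at a mean of 7.80 FPKM in shMYT1 and 6.51 FPKM in shNC. COL1A2 and POSTN of that list were near 0. The sum of 5 measured Schwann cell and glial markers was 2.68 to 3.39 FPKM in shMYT1 and 2.14 to 2.35 FPKM in shNC, with ERBB3 near 0. The listed glial markers SOX10 and FOXD3 had no matching ID among those used here, so they were not analysed. No marker that was measured was at 0 in every library, and the part of any of them in the results was not tested. In bulk RNA, fewer cells that express a gene and less RNA per cell cannot be told apart.

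Promoter windows from RefSeq (GRCh38.p14) were examined for 8 of the 10 genes, and none was examined for INSM1 or SCRT1. The 250 bases before the start are shown for EBF1 and DACH1, since both genes were higher in shMYT1 cells and these windows hold 0 exon bases in GENCODE 29. Capitals mark E-boxes (CANNTG, which reads the same on both strands) and the core element that MYT1 zinc fingers are known to bind (AAGTT, or AACTT on the other strand). The EBF1 window is chr5:159097957-159098206 and the DACH1 window chr13:71867205-71867454, the first inside the span GENCODE gives for EBF1, and both are on the minus strand and written 5′ to 3′ along the gene.
EBF1: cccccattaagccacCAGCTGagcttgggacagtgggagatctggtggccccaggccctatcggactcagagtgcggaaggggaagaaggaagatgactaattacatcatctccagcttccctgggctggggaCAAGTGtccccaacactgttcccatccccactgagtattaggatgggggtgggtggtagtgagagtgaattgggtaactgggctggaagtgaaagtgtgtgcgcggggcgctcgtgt
DACH1: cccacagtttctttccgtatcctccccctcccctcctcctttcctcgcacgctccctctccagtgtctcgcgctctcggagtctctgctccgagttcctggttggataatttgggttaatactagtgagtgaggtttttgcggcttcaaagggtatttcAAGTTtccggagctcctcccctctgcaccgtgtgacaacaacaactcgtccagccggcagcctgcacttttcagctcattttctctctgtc
The EBF1 window held 2 E-boxes, CAGCTG starting at position -235 and CAAGTG at position -117 (position -1 is the last base before the start), and no AAGTT. The DACH1 window held no E-box and 1 AAGTT at position -91. Among 35116 promoter windows of this length, 61.8% held an E-box, 14.0% held CAGCTG and 30.3% held AAGTT on either strand. Every window of NHLH1, NHLH2 and SCRT2 held an E-box, and none held AAGTT. For NHLH1 it was CAGATG at position -210, and for SCRT2 CATTTG at -97 and CACCTG at -53. The NHLH2 windows, from separate starts, held CAATTG at -219 and CAGATG at -137, and CAGCTG at -78. Those of NHLH2 and SCRT2 lie wholly in exons of GENCODE 29. The windows of NEUROD1, INSM2 and NEUROG2 held neither an E-box nor AAGTT. Of their 250 bases, 250, 122 and 0 lie in exons of GENCODE 29, so those of NEUROD1 and INSM2 are unlike the windows shown.

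The 10 genes spanned a wide range of levels. INSM2 was the highest by far, at 87.5 ± 1.59 FPKM in shMYT1 and 96.4 ± 3.90 FPKM in shNC (SD, n = 3 each), above the mean level of 98.9% of all gene IDs in the table. In shMYT1 cells the order below it was SCRT1, EBF1, INSM1, SCRT2, NEUROD1, DACH1, NHLH1, NEUROG2 and NHLH2. Among these neighbours only NEUROD1 and DACH1 had overlapping library ranges, at 1.59 to 2.11 FPKM and 1.34 to 1.94 FPKM. In shNC cells SCRT1 (4.45 to 6.17 FPKM), INSM1 (4.68 to 5.55 FPKM) and EBF1 (4.82 to 5.20 FPKM) shared the next rank with overlapping ranges. NEUROD1, SCRT2, DACH1 and NHLH1 followed without overlap, and NEUROG2 and NHLH2 came last with ranges that overlapped each other. SCRT1 therefore stood apart from EBF1 and INSM1 in shMYT1 libraries but not in shNC libraries, and NEUROD1 lay below SCRT2 in shMYT1 and above it in shNC.

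Of the 10 genes, 7 averaged 1 FPKM or more across all 6 libraries and were tested with limma among 14106 genes, with Benjamini-Hochberg adjustment over all of them. SCRT1, DACH1 and EBF1 rose, NEUROD1, INSM1 and INSM2 fell, and SCRT2 did not pass. In all, 24.2% of the tested genes passed the adjusted p threshold of 0.05 in either direction, 11.9% as higher and 12.3% as lower in shMYT1. The 6 genes that passed were also the 6 whose groups did not overlap, a property of 42.3% of all tested genes. Of the members, 4 passed with an absolute log2 fold change of at least 0.5, as did 3.4% of the tested genes. The median absolute log2 fold change was 0.51 for the 7 tested members and 0.11 for all tested genes. Since the 10 genes were picked with results of these data in view, and DACH1 reached the 1 FPKM minimum through its shMYT1 libraries alone, these counts are a description. The median log2 fold change of the 7 was -0.03 and their mean 0.02, which differ in sign.

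**Figure D1:**
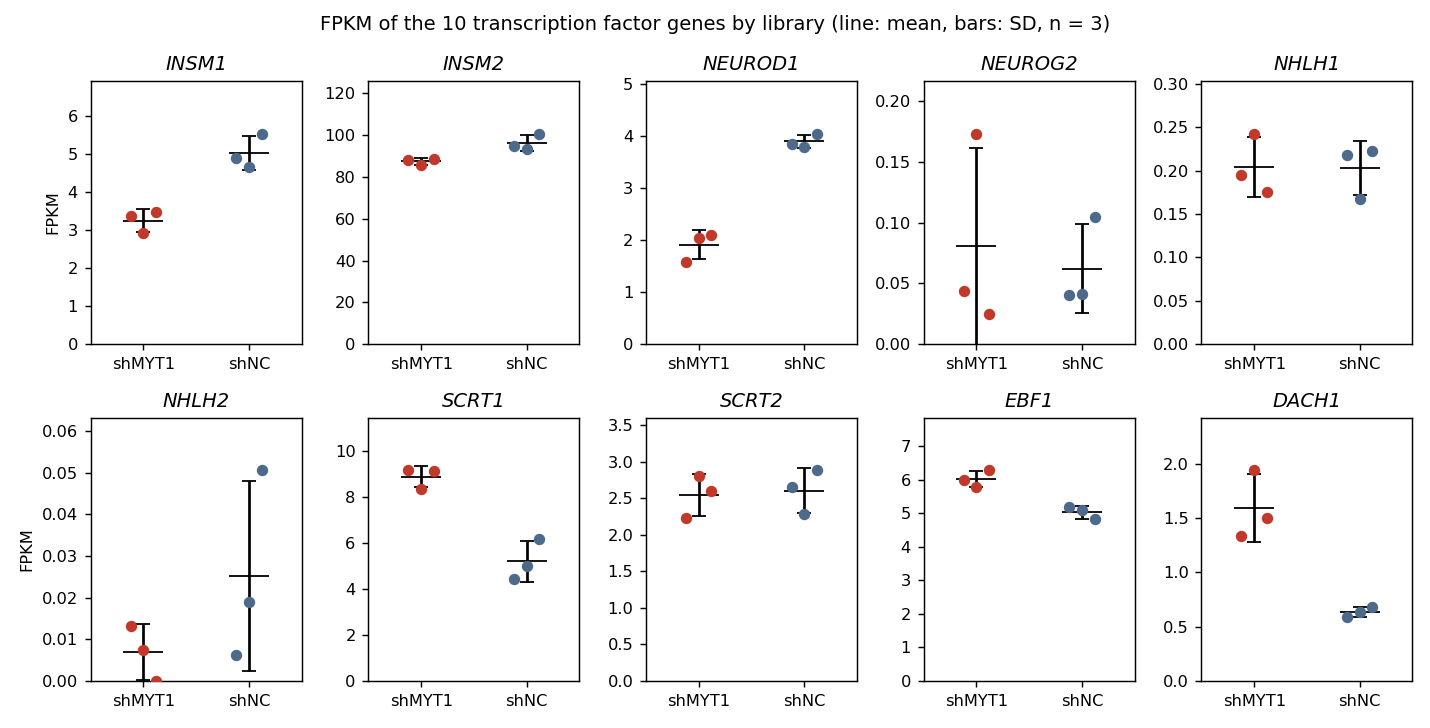
FPKM of each of the 10 genes (vertical axes from 0, scaled per gene) in the 3 shMYT1 libraries (left, red) and 3 shNC libraries (right, blue), with the mean and SD. NEUROD1, INSM1 and INSM2 were lower and SCRT1, EBF1 and DACH1 higher in every shMYT1 library than in any shNC library, while SCRT2 and the low genes NEUROG2, NHLH1 and NHLH2 overlapped between groups.

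Among the bHLH genes, NEUROD1, a differentiation factor of neurons and endocrine cells (ENSG00000162992, chromosome 2, 181673088 to 181680876, minus strand, hg38), had the largest fall of the 7 tested members. It was at 1.59, 2.03 and 2.11 FPKM in shMYT1 libraries, against 3.85, 3.80 and 4.05 FPKM in shNC libraries. All shMYT1 libraries were low and the groups were far apart. Means were 1.91 ± 0.28 FPKM in shMYT1 and 3.90 ± 0.13 FPKM in shNC (SD, n = 3 each), a ratio of 0.490. The fall rests on 105, 119 and 124 fragments in shMYT1 and 274, 264 and 281 in shNC. Limma gave a log2 fold change of -0.76 ± 0.08 (SE), with -0.95 to -0.57 as its 95% interval (adjusted p = 0.00131), on the log2(FPKM + 1) scale, which understates the change of low genes. NEUROD1 shares 236 of its 3312 exon bases with CERKL on the same strand, where fragments cannot be assigned with certainty. CERKL was at 1.46 ± 0.26 FPKM in shMYT1 and 1.12 ± 0.09 FPKM in shNC (SD, n = 3 each), higher by 0.21 on the log2 scale but not past the threshold (limma adjusted p = 0.182).

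The other proneural bHLH members were at or near the limit of detection. NHLH1, a neuronal bHLH factor of newly formed neurons (ENSG00000171786, chromosome 1), was at 0.195, 0.243 and 0.176 FPKM in shMYT1 and 0.218, 0.167 and 0.223 FPKM in shNC, from 8 to 12 fragments per library. These groups overlapped. NEUROG2, a proneural determination factor (ENSG00000178403, chromosome 4), had 2, 7 and 1 fragments in shMYT1 and 2, 2 and 5 in shNC, while 3 fragments on this gene equal 0.0611 to 0.0742 FPKM. NHLH2, the paralogue of NHLH1 (ENSG00000177551, chromosome 1), had 2, 1 and 0 fragments in shMYT1 and 1, 3 and 8 in shNC. No fold is given for NEUROG2 and NHLH2, since a few fragments decide their levels. In a fit without the filter on low values, in which 7.89% of all genes passed, the 3 genes had limma adjusted p of 0.885 (NEUROG2), 0.988 (NHLH1) and 0.639 (NHLH2). A change in them was not detectable at this depth. For NHLH1 the 95% interval was -0.11 to 0.11 on the log2(FPKM + 1) scale. At so low a level this scale strongly understates a change, so the interval is not a tight bound on the ratio.

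INSM1, a repressor that marks neuroendocrine cells (ENSG00000173404, chromosome 20, 20368121 to 20370949, plus strand), was at 3.36, 2.92 and 3.48 FPKM in shMYT1 libraries and at 4.90, 4.68 and 5.55 FPKM in shNC libraries. Every shMYT1 library was below every shNC library. The mean in shMYT1 was 0.645 times that in shNC, and limma gave a log2 fold change of -0.51 ± 0.08 (SE), with -0.69 to -0.33 as its 95% interval (adjusted p = 0.00460). Its paralogue INSM2 (ENSG00000168348, chromosome 14, 35534042 to 35537054, plus strand) was at 88.1, 85.7 and 88.7 FPKM in shMYT1 and at 95.0, 93.4 and 101 FPKM in shNC. The fall was slight, -0.14 on the log2 scale (SE 0.03, 95% interval -0.22 to -0.05, limma adjusted p = 0.0318), although 4566 to 6367 fragments per library lay behind it. The INSM2 call was lost without shMYT1 replicate 1 (adjusted p = 0.0813), 2 (0.0870) or 3 (0.0649), without shNC replicate 1 (0.0679), without the filter (0.0723) and without a variance trend (0.0679).

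Within each library INSM1 can be set against INSM2. INSM1 was 3.82, 3.41 and 3.92% of the INSM2 level in shMYT1 libraries and 5.17, 5.01 and 5.50% in shNC libraries, so the ratio was lower in every shMYT1 library. The log2 ratio differed by -0.49 between groups (exact two-sided permutation test, p = 0.1, the smallest that 3 libraries against 3 allow). NEUROD1 was 47.2, 69.6 and 60.5% of the INSM1 level in shMYT1 and 78.5, 81.1 and 73.0% in shNC, again with no overlap, the log2 ratio differing by -0.41 (exact permutation test, p = 0.1). These ratios and the SCRT1 ratio were 3 comparisons chosen after the values were seen, and all had an exact permutation p of 0.1 after adjustment over the 3.

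SCRT1, a neuron-specific repressor of the SNAI superfamily (ENSG00000261678, chromosome 8, 144330565 to 144336281, minus strand), rose by a similar amount to DACH1 on the log2(FPKM + 1) scale; smaller pseudocounts put DACH1 higher. SCRT1 was at 9.16, 8.37 and 9.13 FPKM in shMYT1 libraries, against 4.45, 4.98 and 6.17 FPKM in shNC libraries. The shMYT1 libraries lay close together and the shNC libraries were spread, with shNC replicate 3 the highest. Means were 8.89 ± 0.45 FPKM in shMYT1 and 5.20 ± 0.88 FPKM in shNC (SD, n = 3 each), a ratio of 1.71, and limma gave a log2 fold change of 0.68 ± 0.10 (SE), with 0.44 to 0.92 as its 95% interval (adjusted p = 0.00422). SCRT2, its paralogue (ENSG00000215397, chromosome 20, 661596 to 676179, minus strand), was at 2.23, 2.80 and 2.60 FPKM in shMYT1 and at 2.66, 2.28 and 2.88 FPKM in shNC. These groups overlapped, and the log2 difference of -0.03 had a 95% interval of -0.24 to 0.19 (limma adjusted p = 0.866); its upper end lies below the log2 fold change of SCRT1. SCRT2 shares 332 of its 3577 exon bases with AL121758.1 on the same strand, a gene at 0.0489 FPKM. Within libraries, SCRT1 was at 411, 299 and 352% of the SCRT2 level in shMYT1 libraries and at 168, 219 and 214% in shNC libraries. The log2 ratio was higher by 0.82 in shMYT1 (exact permutation test, p = 0.1).

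EBF1 (ENSG00000164330, chromosome 5, 158695916 to 159099761, minus strand) was at 5.99, 5.79 and 6.29 FPKM in shMYT1 libraries, against 5.20, 5.10 and 4.82 FPKM in shNC libraries. The shMYT1 libraries were all higher, by a small margin: the ratio of means was 1.20 and the log2 fold change 0.22 (SE 0.05, 95% interval 0.11 to 0.33, limma adjusted p = 0.0162). The call was lost without shMYT1 replicate 1 (adjusted p = 0.0519), shMYT1 replicate 3 (0.0513) or shNC replicate 2 (0.0501). DACH1 (ENSG00000276644, chromosome 13, 71437966 to 71867192, minus strand) was at 1.34, 1.94 and 1.50 FPKM in shMYT1 libraries and at 0.588, 0.636 and 0.681 FPKM in shNC libraries. Its shMYT1 libraries were high and varied more than the shNC libraries. The ratio of means was 2.51, from 144, 185 and 144 fragments in shMYT1 and 68, 72 and 77 in shNC. DACH1 reached the 1 FPKM minimum for testing through its shMYT1 libraries alone. In the fit without that filter its limma adjusted p was 0.0214. With the filter, limma gave a log2 fold change of 0.66 ± 0.11 (SE), with 0.40 to 0.92 as its 95% interval (adjusted p = 0.00679) with a pseudocount of 1. The value was 1.19 with a pseudocount of 0.1 and 1.30 with voom on recovered fragments, which shows how far the pseudocount compresses a gene near 1 FPKM.

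**Figure D2:**
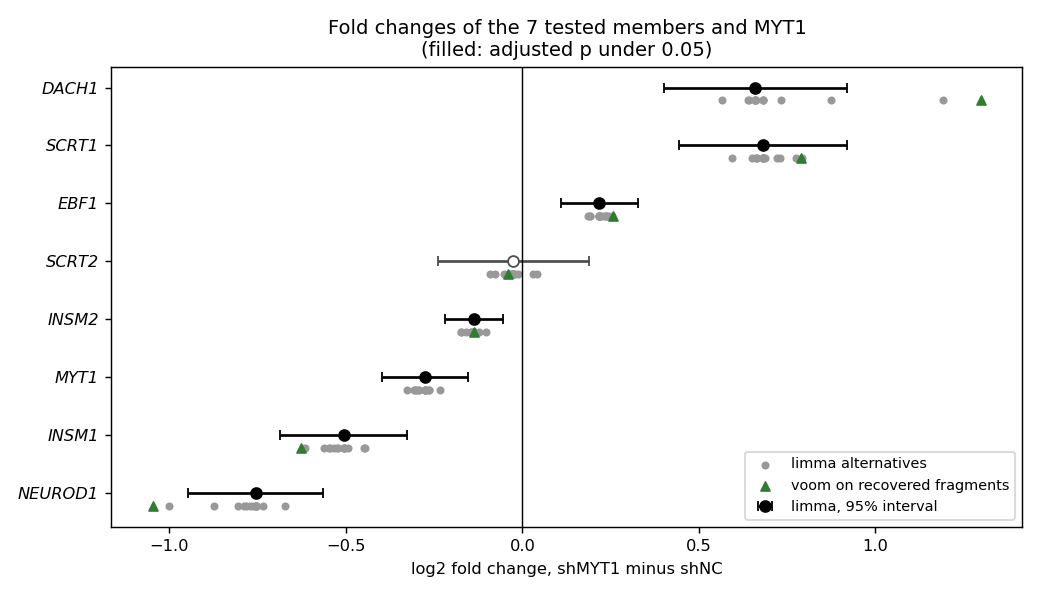
Log2 fold changes (horizontal axis, shMYT1 minus shNC) of the 7 tested members and MYT1 with 95% intervals from limma (black; open where adjusted p was 0.05 or more), and below each the values under the limma alternatives (grey) and voom on recovered fragments (green). The sign was the same under all alternatives for DACH1, SCRT1, EBF1, INSM2, MYT1, INSM1 and NEUROD1, while SCRT2 lay on both sides of 0.

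Each gene was also set against its chromosomal neighbours, the tested genes averaging 3 FPKM or more within 5 Mb on either side. All 9968 genes at that level had a median log2 fold change of -0.01. The 58 neighbours of SCRT1 had a median of -0.10, with 15 lower and 1 higher past the threshold, and 0 of the 58 reached its log2 fold change. The 22 neighbours of NEUROD1 had a median of -0.12, with 10 lower and 1 higher, so NEUROD1 lay in a stretch where many genes were slightly lower, but 0 of the 22 fell as far. The part of the region in the NEUROD1 value was not tested. The 30 neighbours of INSM1 had a median of -0.01, with 4 lower and 3 higher, and 0 of the 30 fell as far. INSM2, with a log2 fold change of -0.14, lay below 24 of its 27 neighbours, whose median was -0.07. EBF1 lay above 25 of its 26 neighbours, whose median was -0.06. DACH1 had only 5 such neighbours, with a median of 0.10, and lay above all 5.

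**Figure D3:**
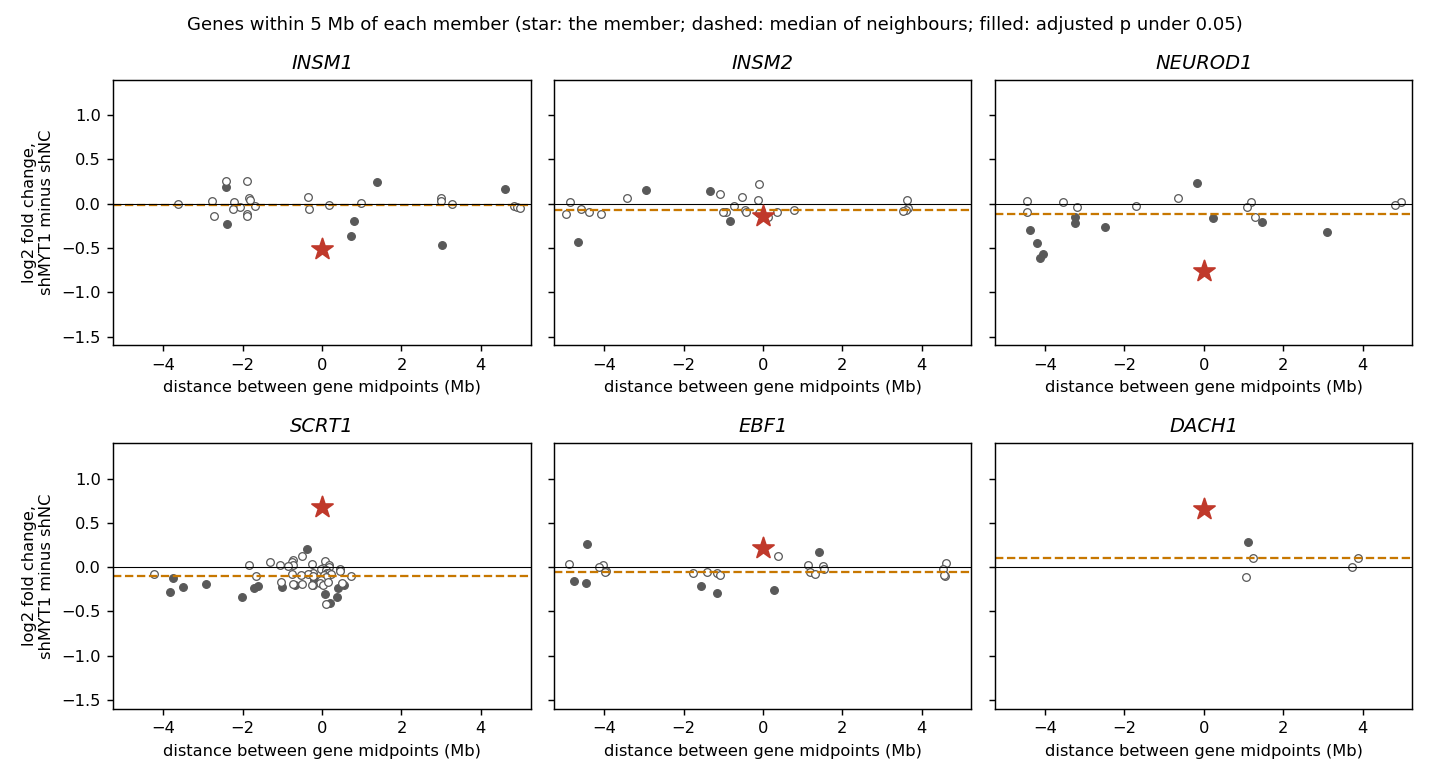
Log2 fold change (vertical axis, shMYT1 minus shNC) of the tested genes averaging 3 FPKM or more against distance between gene midpoints in Mb (horizontal axis), for the 6 members past the threshold (red star), with the neighbours' median (dashed). SCRT1 lay above all of its 58 neighbours and NEUROD1 and INSM1 below all of theirs, while INSM2 lay below 24 of its 27.

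Among other bHLH genes of the lineage, HAND1 rose, HAND2 fell and ATOH8 did not pass. HAND1 and HAND2 encode factors of sympathetic neuron development. HAND1 was at 62.1 ± 0.36 FPKM in shMYT1 and 51.8 ± 2.37 FPKM in shNC (SD, n = 3 each; limma adjusted p = 0.00377). HAND2 had a log2 fold change of -0.18, and the call was lost without shMYT1 replicate 1 (adjusted p = 0.0571) and without the filter (0.0595). HAND2 shares 867 of its 3601 exon bases with HAND2-AS1 on the other strand, and whether counting used the strand is not stated in the labels.

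Among the E proteins and the antagonists of bHLH factors, 6 of 10 tested genes fell and 1 rose. Over all tested genes, 12.3% passed as lower and 11.9% as higher. The median log2 fold change of the list was -0.13, against -0.005 for all tested genes. ID4 had the largest log2 fall of the list. It was at 3.13 ± 0.50 FPKM in shMYT1 and 6.26 ± 0.26 FPKM in shNC (SD, n = 3 each), with a limma log2 fold change of -0.82 (adjusted p = 0.00151). ID1 fell by 0.45 on the log2 scale and ID3 by 0.23, while ID2, at 68.2 ± 2.59 FPKM in shMYT1 and 69.9 ± 1.66 FPKM in shNC (SD, n = 3 each), did not pass. HEY1, a Notch-responsive repressor on chromosome 8, fell by 0.47, and HES1, another repressor of proneural genes, rose by 0.29. The E protein genes TCF3 and TCF4 had log2 fold changes of -0.11 and -0.16 with adjusted p of 0.0430 and 0.0340. The TCF3 call was lost without any 1 of the 6 libraries (adjusted p 0.0720 to 0.111) and the TCF4 call without shMYT1 replicate 1 (0.0830), shMYT1 replicate 3 (0.0919), shNC replicate 1 (0.105) or shNC replicate 2 (0.110). TCF12, the remaining E protein gene, differed by -0.01 and did not pass.

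Of 4 tested paralogues of the members, SNAI2 fell and EBF3, EBF4 and SNAI1 did not pass, while 24.2% of all tested genes passed. SNAI2, a repressor of epithelial genes on chromosome 8, was at 17.0 ± 2.16 FPKM in shMYT1 and 25.9 ± 0.50 FPKM in shNC (SD, n = 3 each), with a limma log2 fold change of -0.58 (adjusted p = 0.00325), while SCRT1, of the same superfamily, rose. EBF3 was at 6.33 ± 0.58 FPKM in shMYT1 and 6.29 ± 0.12 FPKM in shNC (SD, n = 3 each).

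Of 12 tested genes of the LSD1 and CoREST complex, 3 rose, 0 fell and 9 did not pass, with a median log2 fold change of 0.10. The share that passed is close to the 24.2% of all tested genes, and each of the 3 calls was lost without at least 1 library. KDM1A, which encodes LSD1, was at 79.1 ± 0.57 FPKM in shMYT1 and 72.4 ± 1.31 FPKM in shNC (SD, n = 3 each), with a limma log2 fold change of 0.13 (adjusted p = 0.0123), a call lost without shNC replicate 2 (adjusted p = 0.0575). HMG20B, with 369 of its 3857 exon bases opposite MFSD12, rose by 0.25 and ZMYM2 by 0.20 on the log2 scale. The HMG20B call was lost without shMYT1 replicate 1 (0.0607), shMYT1 replicate 3 (0.0523) or shNC replicate 2 (0.0610), and the ZMYM2 call without any 1 library other than shMYT1 replicate 3 (0.0509 to 0.0690).

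Among 6 tested genes of the EYA family and the sine oculis homeobox family, partners of DACH proteins, EYA4 and SIX5 rose and EYA3 fell. Over all tested genes, 11.9% passed as higher and 12.3% as lower. EYA4, a phosphatase and coactivator that works with sine oculis homeobox proteins, was at 11.3 ± 0.78 FPKM in shMYT1 and 6.40 ± 0.11 FPKM in shNC (SD, n = 3 each), with a limma log2 fold change of 0.74 (adjusted p = 0.000325). SIX5 had a log2 fold change of 0.48, but 2020 of its 3556 exon bases lie opposite AC074212.1, a gene at 0.0940 FPKM. The SIX5 call was lost without shMYT1 replicate 1 (adjusted p = 0.0626), shMYT1 replicate 3 (0.0650), shNC replicate 1 (0.0697) or shNC replicate 2 (0.0576) and without the filter (0.0699). EYA3 had a log2 fold change of -0.14, and its call was lost without any 1 of the 6 libraries (adjusted p 0.0597 to 0.139).

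Of 19 tested neuroendocrine and secretory granule genes 3 rose, 5 fell and 11 did not pass, with a median log2 fold change of -0.08. Over all tested genes, 11.9% passed as higher and 12.3% as lower. RAB3A, a GTPase of secretory vesicles, was at 7.34 ± 0.87 FPKM in shMYT1 and 10.8 ± 1.02 FPKM in shNC (SD, n = 3 each), with a limma log2 fold change of -0.50 (adjusted p = 0.0108), and 165 of its 1818 exon bases lie opposite MPV17L2. CADPS, which primes dense-core vesicles for release, fell by 0.41, and the granin genes SCG2 and SCG3 fell by 0.27 and 0.25. VGF, a neurosecretory protein gene, rose by 0.39 and ENO2, the neuronal enolase gene, by 0.18. CHGA, the chromogranin A gene, was at 98.5 ± 4.75 FPKM in shMYT1 and 103 ± 5.55 FPKM in shNC (SD, n = 3 each) and did not pass. The remaining calls were CHGB, with a log2 fold change of 0.14, and CPE, with -0.10, both named outside the rule for named genes. The CHGB call was lost without shMYT1 replicate 1 (adjusted p = 0.0658), shMYT1 replicate 2 (0.0595) or shNC replicate 2 (0.0683), and the CPE call without any 1 of the 6 libraries (0.0516 to 0.134).

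**Figure D4:**
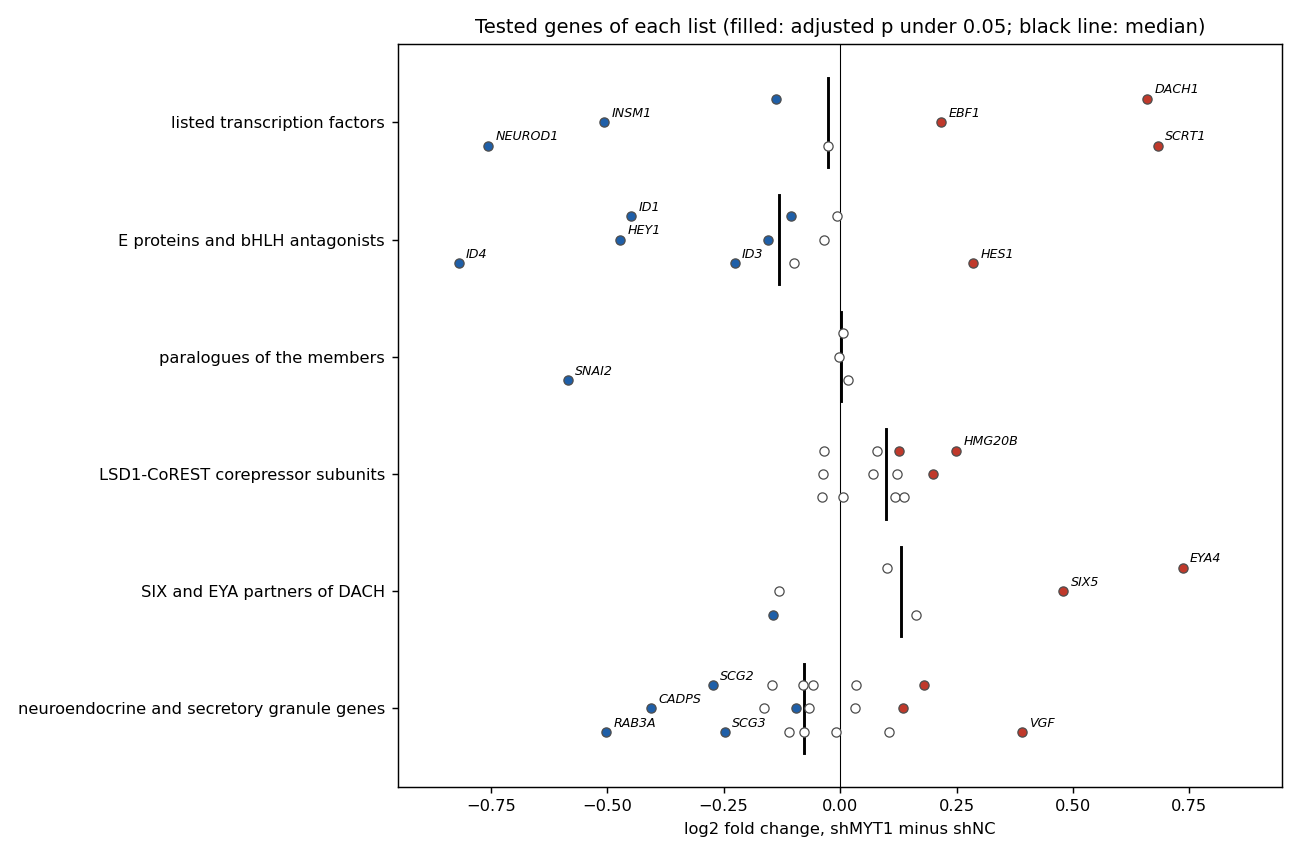
Log2 fold change (horizontal axis, shMYT1 minus shNC) of every tested gene of 6 lists, the members at the top, filled where limma adjusted p was under 0.05 (red higher, blue lower), with list medians in black. The E protein and antagonist list has 6 filled genes below 0 and 1 above, and the LSD1 and CoREST list 3 filled genes above 0 and none below. Of all tested genes, 12.3% passed as lower and 11.9% as higher.

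The genes most like each called member across the 6 libraries were found by the root mean square difference of centred log2(FPKM + 1) values among 11175 other tested protein-coding genes. SYT7, SYT6 and CMBL were nearest to NEUROD1 (differences of 0.07 for each), and the first 2 encode synaptotagmins. SYT7 was at 3.82 ± 0.28 FPKM in shMYT1 and 6.69 ± 0.32 FPKM in shNC (SD, n = 3 each). CNIH3, DUSP2 and BMP7 were nearest to INSM1 (0.05 for each), CACNG7, ZNF385A and MDFI to SCRT1 (0.07 for each), and DYRK1B, CSDC2 and RGS16 to DACH1 (0.05 to 0.07). MDFI encodes an inhibitor of bHLH myogenic factors and was at 20.7 ± 1.36 FPKM in shMYT1 and 12.4 ± 1.18 FPKM in shNC (SD, n = 3 each). UPF1, NET1 and TRMT61A were nearest to INSM2 (0.01 for each) and MAGI3, ZFHX3 and PROSER3 to EBF1 (0.01 to 0.02). With 2 groups of 3, any gene that moves by a like amount ranks high on this measure.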

How the data were processed

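Total RNA of 6 libraries was measured, and the values are FPKM as the authors deposited them in a single table. The tools HISAT2 2.0.5 and featureCounts 1.5.0-p3 and the genome build hg38 are named in the submitters' processing notes. The annotation, the use of strand and any filter were not given in the sources used here. Symbols, positions and exon lengths came from GENCODE 29 (32301 of 32434 IDs, 99.6%). FPKM times union exon length gave whole fragments, within 0.01, for 95.4% of these IDs, all 10 members included and MYT1 not. Median ratios between libraries agreed to within 7.0e-08%, so the deposited values already carried such a scaling and were used as they are. Intervals and limits from fragments take in counting error alone.

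Genes averaging 1 FPKM or more entered a two-sided limma fit (version 3.58.1, R 4.3.3) of log2(FPKM + 1) that had a variance trend and Benjamini-Hochberg adjustment; fold changes are shMYT1 minus shNC. The members and lists were chosen with earlier results of these data known, and the within-library ratios after the values were seen. Named were all members, MYT1, up to 6 called genes per other list (or its 2 highest), and the 3 genes most like each called member. Any other gene named was chosen after its values were seen. Some genes that the rule selects were not reported here. The fits were tested on simulated data; a first limit on recovery was missed for genes of few fragments and then set for genes of at least 100. Promoter windows are RefSeq's, GRCh38.p14.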

Additional observations from a re-analysis of the deposited data

How the results depend on the processing

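Alternatives varied the pseudocount, filter, scaling, variance trend and test, included a fit with a replicate block, and omitted 1 library at a time. MYT1, NEUROD1, INSM1, SCRT1 and DACH1 kept direction and call under every alternative run for them. EBF1 and INSM2 kept direction and lost calls as given above. SCRT2, which did not pass, had log2 fold changes of -0.092 to 0.040 with 1 library omitted, positive without shMYT1 replicate 1 (0.040) and without shNC replicate 3 (0.029). The number of members past the threshold ran from 4 to 6 over the omissions of 1 library, and was 3 of 3 tested with a minimum of 5 FPKM. The number of all genes past it was 3420, and 2038 to 3048 with 1 library left out: 2196 without shMYT1 replicate 1, 2195 without shNC replicate 1 and 2038 without shNC replicate 2, fits with fewer samples. With every library rescaled to the same FPKM total, 36.4% of called genes were higher in shMYT1, against 49.2% as deposited, and the median over all genes moved by -0.03 on the log2 scale. Of 25 called genes of the other lists, 15 kept their call under every alternative and 0 changed direction.

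Whether the replicate number pairs the libraries could not be settled from the values. Deviations of same-numbered libraries correlated at only 0.03, 0.01 and 0.04 across genes. Each library still correlated best with its own number, a hint from the data and not the design. With the replicate block 3381 genes passed, and 6 members. Between 68 and 6367 fragments lay behind each value of the 7 tested members, and 0 to 12 behind those of NEUROG2, NHLH1 and NHLH2, for which only large changes could have been seen.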
